A study of Mus musculus with 4 samples.

Results

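The DNA replication genes described here are 44 genes of S phase, taken by name from a fixed list, and all 44 were found among the 27,998 genes of the count matrix. They were grouped by role: 12 form, load or hold back the replicative helicase, 5 are polymerase or primase subunits, 6 belong to the sliding clamp, its loader or the single-strand binding complex, 2 remove flaps and ligate, 6 act in repair and checkpoint, 5 supply nucleotides, 6 handle chromatin and histones and 2 are E2F factors. Together they gave 54,493 unique molecular identifiers (UMIs, one for each captured RNA molecule), from 172 for Exo1 to 4419 for Slbp, with a median of 1013 per gene. Of the 44, 30 are also in the Seurat S phase gene list, from which the deposited phase of each cell was called, and 14 are not (Mcm3, Mcm7, Mcm10, Gins1, Prim2, Rfc3, Rfc4, Rfc5, Pold1, Pole, Tk1, Lig1, E2f1 and Dut).

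CD11b+ splenocytes of C57BL/6 mice aged 8 to 12 weeks were sorted and profiled by CITE-seq, which counts RNA and antibody-derived tags in the same cell. One library came from mice in steady state and one from mice given 3 once-daily subcutaneous injections of 10 µg GM-CSF, with cells taken 24 h after the last. It is not stated whether the steady-state mice received a control injection, nor how many mice entered a library. GM-CSF is a growth factor for myeloid cells, and the study asked which dendritic cells it produces in the spleen. The steady-state library held 4827 cells and 22,358,903 UMIs (median 3371 per cell), and the GM-CSF library 6804 cells and 35,007,567 UMIs (median 4916). The authors re-clustered 6075 of these cells, monocytes, macrophages, dendritic cells (DCs) and DC progenitors, as the Focus bundle (MoMacDC), with 2135 steady-state and 3940 GM-CSF cells in clusters 0 to 16. With 1 library per condition the effect of GM-CSF and that of the library cannot be told apart. No test between groups was possible. Levels are given as CPM, the summed UMIs of a gene or gene set in a group of cells for each 1,000,000 UMIs of that group, and all intervals are exact 95% intervals that cover counting error only.

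A cell copies its genome once per cycle. In G1 the origins of replication are loaded with the ring-shaped MCM helicase, in S phase the helicase is activated by CDC45 and the GINS complex, and polymerases copy both strands behind it while the PCNA clamp, placed by replication factor C, holds them on the DNA. Transcription of many of these genes is switched on by E2F factors near the start of S phase, so their RNA marks cells that are preparing for or passing through replication. In the mouse spleen, mature monocytes, granulocytes and most differentiated DCs divide little, whereas myeloid progenitors and some pre-DCs cycle.

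Because the genes were described together, their promoters were searched for letters of the E2F site. The windows ran from 250 bases before to 50 after the RefSeq start on GRCm38.p6, and 36 of the 44 genes had one. Any of TTTCCCGC, TTTGGCGC, TTTCGCGC and TTTGCCGC was found, on either strand, in 14 of these 36 genes (38.9%), against 704 of all 27,025 genes with such a window (2.61%). Among 34 other replication genes with a window the share was 32.4% (11 genes), and among 21 mitosis genes 4.76% (1 gene). TTTCCCGC matched in 7 of the genes, TTTGGCGC in 5, TTTCGCGC in 7 and TTTGCCGC in 0. A match is a description of the letters and not a measured site. Stretches of 3 promoters are shown because they stand for the helicase and primase-polymerase genes whose levels are given below. They lie on chr8:75109326-75109397 (plus strand, Mcm5), chr1:128359774-128359845 (minus strand, Mcm6) and chrX:93632256-93632323 (minus strand, Pola1), upstream of the annotated transcript. Capitals mark the matched letters, which in Mcm5 and Mcm6 are overlapping matches to TTTCGCGC and TTTGGCGC, one on each strand.
Mcm5: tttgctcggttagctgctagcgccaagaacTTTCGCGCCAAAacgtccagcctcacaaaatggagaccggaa
Mcm6: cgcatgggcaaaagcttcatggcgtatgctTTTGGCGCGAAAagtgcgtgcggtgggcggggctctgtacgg
Pola1: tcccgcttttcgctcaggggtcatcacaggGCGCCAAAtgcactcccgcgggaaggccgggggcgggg

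The 44 genes lie on 15 chromosomes, and none overlaps another gene of the matrix on the same strand. Pcna, Nasp and Tyms have pseudogenes by name in the annotation, so their counts are uncertain where reads could match a copy.

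Some groups went against their labels. Clusters 6, 7 and 8 are taken as monocytic and cluster 12 as dendritic. In the GM-CSF library the summed level of 8 classical monocyte markers was 3484 CPM in cluster 6, 1585 in cluster 7 and 1304 in cluster 8, against 51.4 in cluster 12, and that of 11 markers of DCs and their progenitors was 301, 401 and 343 CPM against 1030. The receptor gene Ccr2 stood at 501 CPM in cluster 8 and 15.2 in cluster 12, and the DC growth factor receptor gene Flt3 at 10.4 and 102 CPM. In steady state, however, 22 of the 28 cells of cluster 8 and 5 of the 31 of cluster 7 carried at least 20 UMIs of 5 NK cell markers (Ncr1, Klrb1c, Gzma, Nkg7, Klrk1). The 5 markers together stood at 11,716 CPM in steady-state cluster 8 and at 24.05 CPM in GM-CSF cluster 8, and in cluster 6 none of the cells carried 20 in either library. In cluster 12 this held for 0 of 20 steady-state cells and 1 of 152 GM-CSF cells. The other 6 cells of steady-state cluster 8 held B cell markers at 732 CPM. The cell type named cDC2-A also held the NK markers, at 18,503 CPM in steady state and 19,529 CPM after GM-CSF. Summed levels of the bundle, its phases and clusters 7 and 8 are given with and without these cells, as are those of MoMacDC_c4, and 8 cell barcodes occurred in both libraries.

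Among the deposited cell types, the replication genes were highest in the cells named MoMacDC_c4, at 5909 CPM (43 cells) in steady state and 3313 CPM (595 cells) after GM-CSF. Of the 43 steady-state cells, 27 carried the NK markers, which stood at 11,477 CPM there and at 17.6 CPM after GM-CSF. The 16 cells without them stood at 5279 CPM (4953 to 5621), so that the level after GM-CSF was 0.627 times as high (0.588 to 0.670). Progenitor DCs followed among the types of over 100 cells in each library, at 1312 and 2475 CPM, and neutrophils at 956 and 1252 CPM. Granulocytes, taken as the background because mature cells divide little, stood at 165 and 212 CPM. Slbp (54.7 and 57.6 CPM) and Rfc2 (27.5 and 54.7 CPM) were the most counted genes there. Dut (0 and 2.49 CPM), Gmnn (4.35 and 3.73 CPM) and Rrm1 (0.544 and 1.66 CPM) lay far lower, so this background was uneven between genes. Whether the counts were free RNA or RNA of the granulocytes themselves was not tested. Of 1929 and 1791 granulocytes 0 held 10 or more UMIs of the 44 genes, which allows a share of up to 0.191 and 0.206% (exact binomial). Their median depth was 1770 and 1229 UMIs, against 9618 and 9709 in MoMacDC_c4. At 1000 UMIs per cell, 3 of 1921 (0.156%) and 1 of 1295 granulocytes (0.0772%) held 3 or more, against 28 of 39 (71.8%) and 285 of 586 (48.6%) of the MoMacDC_c4 cells. MoMacDC_c4 held 45.9% of all UMIs of the 44 genes in the GM-CSF library while making up 8.74% of its cells, and 20.2% in steady state with 0.891% of the cells. The steady-state shares of MoMacDC_c4 include the cells with NK markers. In steady state 43 of the 44 genes were highest in MoMacDC_c4, and all 44 were when NK-marker cells were left out of every type (16 cells of MoMacDC_c4). After GM-CSF 28 were highest there, and 37 without NK-marker cells, while 13 were highest in the 20 cells of cDC2-A with NK markers.

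**Figure D1:**
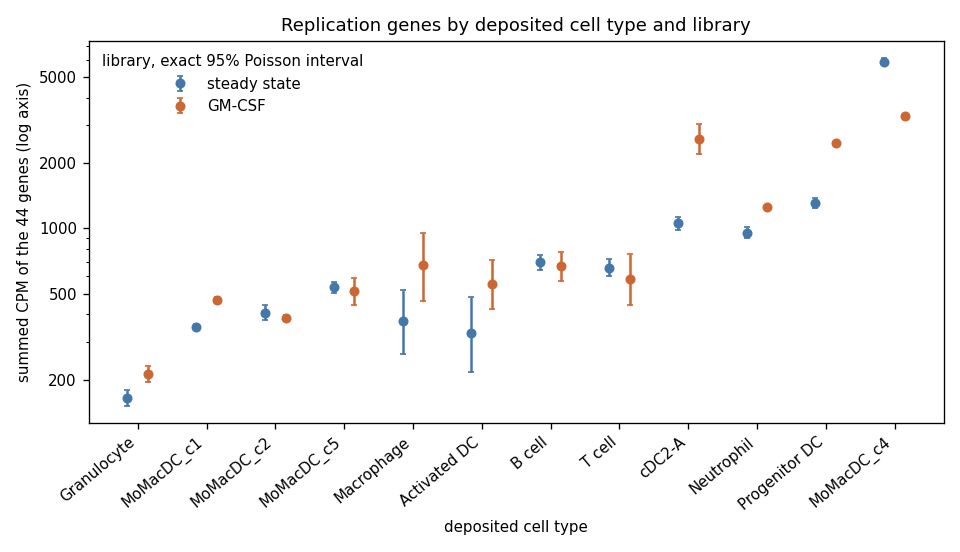
Summed CPM of the 44 replication genes (log axis) in each deposited cell type, steady state in blue and GM-CSF in orange, with exact 95% Poisson intervals. Granulocytes lie lowest at 165 and 212 CPM and MoMacDC_c4 highest at 5909 and 3313 CPM.

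Neutrophils held the genes in few cells. In steady state 19 of 146 neutrophils (13.01%) and after GM-CSF 115 of 893 (12.9%) had 10 or more UMIs of the 44 genes, and these cells held 87.6 and 86.5% of the neutrophils' UMIs of the set. They stood at 2849 and 3582 CPM, against 167 and 242 CPM in the other neutrophils. The cells were picked by their UMIs of the 44 genes, so this share and these levels follow from the choice and describe it only. The 5 markers of neutrophil progenitors (Elane, Mpo, Prtn3, Ctsg, Ms4a3, genes of primary granules and early granulocytic cells) were at 6344 and 4071 CPM in them and at 15.6 and 28.2 CPM in the rest. They were also deeper, at medians of 14,518 and 12,539 UMIs against 6001 and 4031. After thinning to 1000 UMIs the share of neutrophils with 3 or more was 7.53% in steady state and 8.64% after GM-CSF. The neutrophils' summed level was 1.31 times as high after GM-CSF (interval 1.23 to 1.3996). Chaf1b, Gins2 and Mcm3 (13.7 and 36.5 CPM) were at least 2-fold higher, 3 of the 38 genes with 50 or more UMIs against 3.62% of all genes, and 0 were 2-fold lower (2.48% of all genes). With all cells kept, Cdca7, whose product works with the chromatin remodeller HELLS, was the 1 gene highest in neutrophils in both libraries, at 41.2 and 51.1 CPM. Without the NK-marker cells it was highest in the 16 cells of MoMacDC_c4 in steady state, like all 44 genes.

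In progenitor DCs the summed level was 1.89 times as high after GM-CSF (1.79 to 1.99). The cells of this type lay mostly in clusters 9 and 12, and in unequal shares: 100 of 152 cells in cluster 9 and 19 in cluster 12 in steady state, against 225 and 151 of 393 after GM-CSF. Those in cluster 12 held 70.0% of the type's UMIs of the set in steady state and 82.8% after GM-CSF. Within cluster 9 the progenitor DCs stood at 532 and 863 CPM (ratio 1.62, 1.44 to 1.83), and within cluster 12 at 4976 and 4060 CPM (0.816, 0.766 to 0.870). For the 14 genes outside the Seurat list these ratios were 1.95 (1.56 to 2.44) and 0.942 (0.835 to 1.07), the latter with 1 in its interval. The phases of cluster 12 also differed: 11 of its 20 steady-state cells and 35 of its 152 GM-CSF cells were labelled S. Its S cells stood at 7307 and 8294 CPM and its G2M cells at 2974 and 2858 CPM. The part of the phases in the ratio was not tested. Of 40 genes with 50 or more UMIs, 19 were at least 2-fold higher (5.81% of all genes) and 0 at least 2-fold lower (8.06%). Pcna lay the other way, at 78.5 CPM in steady state and 56.4 CPM after GM-CSF.

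In the Focus bundle the 44 genes summed to 629 CPM in steady state and 1263 CPM after GM-CSF, a ratio of 2.01 (1.96 to 2.05). Without the cells with NK markers the values were 526 and 1261 CPM and the ratio 2.40 (2.34 to 2.46), with 34 of 44 genes at least 2-fold higher (9.4% of all genes) and 0 lower (8.95%). Taken gene by gene, with 0.5 counts added to each sum, 29 of 44 genes were at least 2-fold higher after GM-CSF, against 8.66% of the 10,860 genes with 50 or more UMIs, and 0 were at least 2-fold lower (9.46% of all genes). The median ratio was 2.34 for the set and 0.959 for all genes. The interval of the ratio lay above 1 for 41 genes (31.7% of all genes), below 1 for 1 (38.4%) and included 1 for 2. The ratio differed between roles, from 3.29 (3.08 to 3.50) for the nucleotide supply genes to 1.22 (1.17 to 1.29) for the clamp, loader and single-strand binding genes. Without the NK-marker cells these were 4.63 (4.30 to 4.998) and 1.33 (1.27 to 1.401), the median ratio of the set was 2.97, and the interval lay above 1 for 42 genes, below 1 for 1 and included 1 for 1.

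The values by gene that follow hold all cells of the bundle, and 27 of its 2135 steady-state cells carried NK markers. Without these cells the ratio was 6.48 in place of 3.37 for Rrm2, the small subunit of ribonucleotide reductase, 3.77 for Rrm1, its large subunit, 6.05 for Tyms and 6.42 for Tk1. It was 3.17 for the helicase subunit gene Mcm7, 8.35 for Rad51ap1, 1.16 (1.07 to 1.25) for Slbp and 0.795 (0.724 to 0.873) for Pcna.

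Among the helicase genes, the summed level was 152 CPM in steady state and 355 CPM after GM-CSF. Mcm2 to Mcm7 encode the 6 subunits of the ring. In steady state and after GM-CSF, Mcm7 stood at 21.1 and 56.8 CPM (ratio 2.70), Mcm5 at 19.5 and 45.7, Mcm2 at 11.1 and 23.8 and Mcm3 at 23.4 and 47.1. Mcm6 (18.6 and 31.7 CPM) and Mcm4 (14.98 and 20.9 CPM) lay below the 2-fold line, so the 6 subunits of one ring had ratios from 1.39 to 2.70. Mcm10, which helps to activate the loaded helicase, stood at 4.35 and 17.5 CPM (ratio 4.02, 3.09 to 5.29). The GINS subunit Gins2 had a ratio of 4.45 (3.14 and 13.99 CPM) and its partner Gins1 one of 2.27 (2.54 and 5.76 CPM). Cdc45 had a ratio of 3.58 and Cdc6, the loading ATPase, one of 2.12. Gmnn, which encodes geminin, the inhibitor of renewed loading, stood at 25.5 and 70.5 CPM (2.76).

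Of the enzymes that make and join DNA, the 5 polymerase and primase genes summed to 29.4 and 79.3 CPM (ratio 2.70). Prim1, the catalytic primase subunit, had the highest of these ratios (3.72), followed by Pole (3.18), Pola1 (3.08), Prim2 (2.33) and Pold1 (1.99). Lig1, the ligase of Okazaki fragments, stood at 12.6 and 30.3 CPM and Fen1, the flap nuclease, at 13.9 and 29.7 CPM. The clamp and its loader were less uniform. Pcna, the clamp itself, was the 1 gene of the 44 that was lower after GM-CSF beyond counting error, at 56.7 and 40.8 CPM (ratio 0.720, 0.658 to 0.788). The loader subunits Rfc5 and Rfc4 had ratios of 3.92 and 2.77, whereas Rfc2 stood at 54.0 and 56.7 CPM (1.05, 0.964 to 1.14). Rfc3 (1.66) and the single-strand binding subunit Rpa2 (1.17) lay between them.

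The nucleotide supply genes had the highest ratio of the 8 roles, at 74.0 and 243 CPM. Tk1, thymidine kinase, stood at 5.82 and 27.7 CPM (ratio 4.76, 3.81 to 6.02) and Tyms, thymidylate synthase, at 7.49 and 34.3 CPM (4.57, 3.76 to 5.62). Of the ribonucleotide reductase subunits, Rrm2 was counted at 13.4 CPM in steady state and 45.1 CPM after GM-CSF, and Rrm1 at 22.1 and 62.5 CPM. Dut, the dUTPase, stood at 25.2 and 73.4 CPM. In the repair and checkpoint group, Rad51ap1, which acts in DNA repair, had a ratio of 4.53, Clspn (claspin, a checkpoint mediator) one of 2.92 and the nuclease gene Exo1 one of 2.41. Blm (1.88), the uracil glycosylase gene Ung (1.57) and Dtl (1.47), which encodes a ubiquitin ligase subunit, lay under 2. Among the chromatin genes, Uhrf1, which helps to copy DNA methylation, stood at 8.36 and 29.9 CPM (3.58), whereas the histone mRNA binding gene Slbp, the most counted gene of the set, stood at 74.9 and 78.4 CPM (1.05, 0.974 to 1.13). Chaf1b, Cdca7, Nasp and Hells had ratios of 2.34, 1.91, 1.87 and 1.75. The activator E2f1 had a ratio of 1.68 and the repressor E2f8 one of 3.49. The genes with ratios near or below 1 (Pcna, Slbp and Rfc2) were the 3 highest of the set in steady state.

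Most UMIs of the set lay in 3 clusters after GM-CSF. Clusters 7, 8 and 12 held 40.8% of the bundle's UMIs of the 44 genes in steady state, in 79 cells (3.70% of the bundle), and 75.2% after GM-CSF, in 874 cells (22.2%). Cluster 8 alone held 25.2 and 47.9%. When the level of each cluster was kept as in steady state and the GM-CSF shares of UMIs were used, the bundle came to 1612 CPM. With the steady-state shares and the GM-CSF levels it came to 670 CPM. Without the NK-marker cells these were 1493 and 614 CPM, clusters 7, 8 and 12 held 27.9% of the UMIs of the set in steady state, in 52 cells, and cluster 8 alone held 9.98%, in 6 cells. Within the cells labelled G1 the summed level was 338 CPM in steady state and 341 CPM after GM-CSF (ratio 1.01, 0.970 to 1.05). The G1 label comes from a score made with genes of the S list, which holds 30 of the 44, so a low level of these is part of the label. The 14 genes outside the list stood at 81.2 and 117 CPM in the same cells (1.44, 1.33 to 1.56).

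In these G1 cells the roles differed in direction. Of 31 genes with 50 or more UMIs, E2f8, Gins2, Pola1, Rfc5 and Tyms were at least 2-fold higher after GM-CSF (5 genes, against 6.69% of all genes), and 1 was at least 2-fold lower (9.19% of all genes), Pcna, at 39.8 and 19.3 CPM. Slbp stood at 54.2 and 38.5 CPM, Rfc2 at 42.5 and 31.3 CPM and Rpa2 at 11.8 and 6.10 CPM in the same cells. As sums, the nucleotide supply genes were higher after GM-CSF (21.8 and 35.1 CPM, ratio 1.61) and the clamp, loader and single-strand binding genes lower (111 and 84.2 CPM, 0.759). The nucleotide supply sum rested largely on Dut, at 11.1 and 21.8 CPM (1.97, 1.61 to 2.44), which is outside the Seurat list. Tyms was also higher (2.20, 1.21 to 4.24). Rrm1 stood at 7.28 and 7.36 CPM, and the intervals of Rrm1, Tk1 and Rrm2 included 1. Within the clamp, loader and single-strand binding group, Rfc5 (2.70, 1.93 to 3.86) and Rfc4 (1.89, 1.39 to 2.59), both outside the Seurat list, were higher. The interval of Rfc3, also outside it, included 1 (0.690 to 1.23). Pcna, Rfc2 and Rpa2, which are in the list, were lower.

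Between clusters the level spanned over 1 order of magnitude. In the GM-CSF library cluster 8 stood at 4478 CPM (352 cells) and cluster 12 at 4042 CPM (152 cells), against 1043 CPM in cluster 7 (370 cells), 834 in cluster 9 and 758 in cluster 6 (108 cells). In steady state the values were 7248 CPM in cluster 8 (28 cells), 5237 in cluster 12 (20 cells), 664 in cluster 7 (31 cells) and 324 in cluster 6 (297 cells). Without the NK-marker cells steady-state cluster 8 stood at 6565 CPM (6 cells) and cluster 7 at 444 CPM (26 cells). Cluster 6 also differed in its markers: the neutrophil markers stood at 348 CPM in steady state and 3422 CPM after GM-CSF, those of neutrophil progenitors at 19.6 and 131 CPM and those of classical monocytes at 8405 and 3484 CPM, and their part in the levels was not tested. After GM-CSF 29 of the 44 genes were highest in cluster 8 and 11 in cluster 12. Of the other 4, 3 were highest in the 7 cells of cluster 14, of which 6 were called doublets, and 1 in the 2 cells of cluster 16. The clusters were made from these genes among others, so these differences describe the clusters and support nothing. Cluster 8 was lower after GM-CSF than in steady state for 12 of the 44 genes by at least 2-fold (11% of all genes), Pcna, Slbp, Lig1 and Mcm2 among them, and higher for 0 (12.5%), with 22 of the 28 steady-state cells carrying NK markers. Against the 6 cells without them the summed ratio was 0.682.

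**Figure D2:**
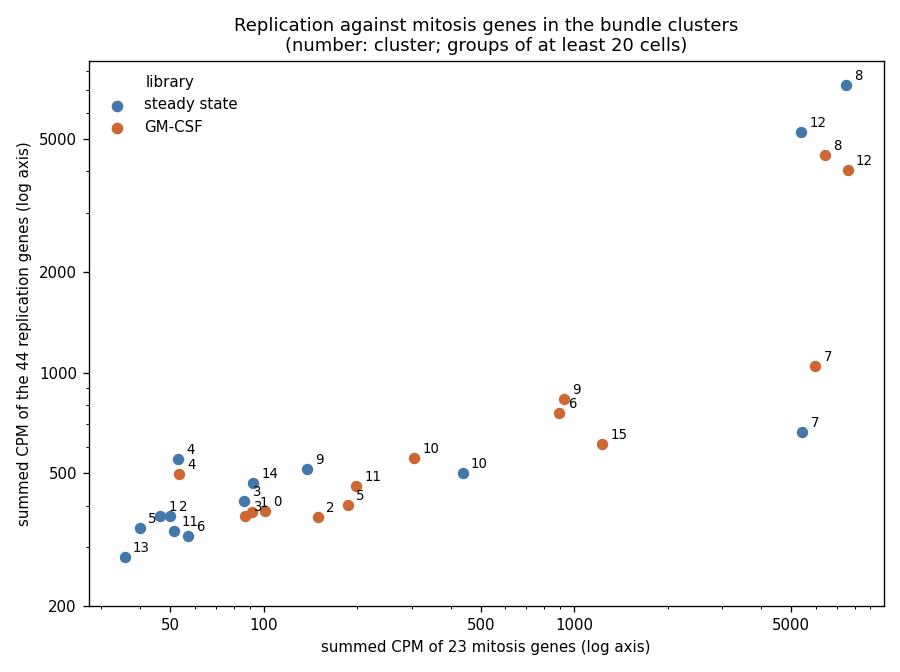
Summed CPM of the 44 replication genes against that of 23 mitosis genes (both log axes) in each Focus bundle cluster of at least 20 cells, steady state in blue and GM-CSF in orange, with the cluster number beside each point. Clusters 8 and 12 lie at the top right in both libraries, and GM-CSF cluster 7 lies as far right at 5979 CPM but lower, at 1043 CPM. All cells are kept, and in steady state 22 of 28 cells of cluster 8 and 5 of 31 of cluster 7 carried NK markers. The 26 other cells of steady-state cluster 7 stood at 1784 CPM of the mitosis genes.

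The sum over clusters 6, 7 and 8 stood at 2663 CPM after GM-CSF, 0.659 times the 4042 CPM of cluster 12 (0.640 to 0.678). None of the 44 genes was at least 2-fold higher in them (9.55% of all genes) and 7 were at least 2-fold lower (4.66%): Dtl, Dut, Fen1, Prim1, Tk1, Tyms and Ung. The median ratio was 0.703 for the set and 1.01 for all genes. This ratio depended on which monocytic cluster was taken: it was 0.187 for cluster 6 alone, 0.258 for cluster 7 alone and 1.11 for cluster 8 alone. In cluster 7 alone, 39 of 40 genes with 50 or more UMIs were at least 2-fold lower than in cluster 12 (7.69% of all genes) and 0 higher (8.82%). In steady state the 3 clusters stood at 1167 CPM, 0.223 times cluster 12 (0.209 to 0.238), and all 32 genes with 50 or more UMIs were at least 2-fold lower (11.6% of all genes). Without the cells with NK markers the steady-state ratio was 0.119 (0.111 to 0.128). This ratio too depended on the cluster: cluster 6, with 297 of the 356 steady-state cells, stood at 324 CPM and cluster 7 at 664 CPM, against 5237 CPM in cluster 12. Steady-state cluster 8 stood above cluster 12, at 7248 CPM, and at 6565 CPM in its 6 cells without NK markers. With all its cells, the interval over cluster 12 lay above 1 for 12 genes and below 1 for 1.

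Cluster 8 and cluster 12 held the genes at like levels after GM-CSF although their markers differed. The ratio of the sums was 1.11 (1.08 to 1.14). None of the 44 genes was 2-fold higher (7.36% of all genes) or 2-fold lower (4.05%) in cluster 8. The interval lay above 1 for 11 genes (20.2% of all genes), below 1 for 3 (16.4%) and included 1 for 30. Mcm5 stood at 176 CPM in cluster 8 and 104 CPM in cluster 12 (ratio 1.69, 1.42 to 2.03), Mcm3 at 172 and 119 CPM (1.45) and Pcna at 123 and 84.4 CPM (1.46). The reductase subunit Rrm1 stood at 264 and 197 CPM (1.34). The 3 genes higher in cluster 12 were Tyms (137 and 174 CPM, 0.786), Fen1 (99.2 and 123 CPM, 0.804) and Ung (14.2 and 27.7 CPM, 0.513). By role, the helicase genes had a ratio of 1.24 (1.17 to 1.31) and the nucleotide supply genes one of 0.994 (0.936 to 1.06). Both clusters held cells labelled S or G2M only, 98 and 254 in cluster 8 and 35 and 117 in cluster 12. Among the S cells the level was 7013 CPM in cluster 8 and 8294 CPM in cluster 12, and among the G2M cells 3529 and 2858 CPM, so the order of the clusters turned between the phases. The tags set the clusters apart: the median counts of CD115, the receptor that marks monocytes, were 48 in cluster 8 and 6.5 in cluster 12, and those of CD11c, a DC integrin, 240 and 459. Those of the MHC II tag were 397.5 and 668. Cluster 8 lay near cluster 0 of the same library in these tags (CD115 57, CD11c 263, MHC II 399.5). It differed from cluster 0 in Ly6C (54 against 15) and CD301b (26 against 187).

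**Figure D3:**
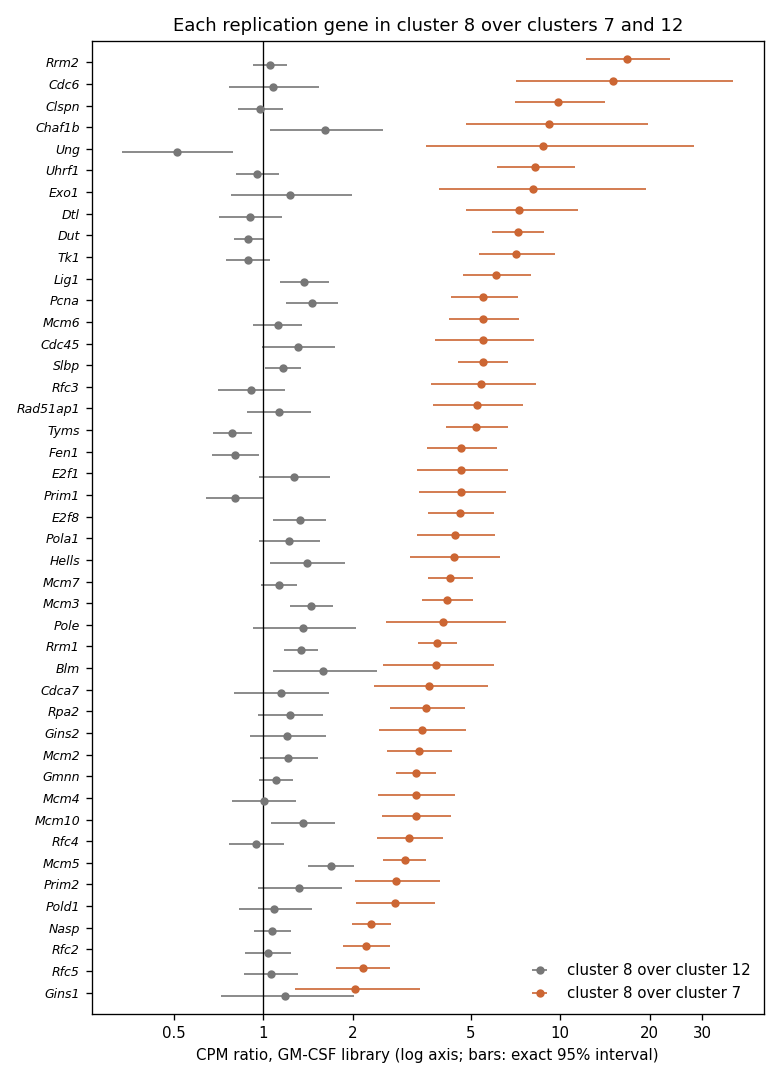
CPM ratio of each replication gene in the GM-CSF library (log axis), cluster 8 over cluster 12 in grey and cluster 8 over cluster 7 in orange, with exact 95% intervals. The orange points run from 2.04 (Gins1) to 16.7 (Rrm2) and the grey points lie around 1, from 0.513 (Ung) to 1.69 (Mcm5).

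Cluster 7 held few replication transcripts beside many mitotic ones. The 23 mitosis genes stood at 5979 CPM in cluster 7, 6415 in cluster 8 and 7600 in cluster 12 after GM-CSF, so cluster 8 over cluster 7 came to 1.07 (1.05 to 1.09) for them and to 4.29 (4.13 to 4.46) for the replication genes. All 44 were at least 2-fold higher in cluster 8 (4.78% of all genes), and the interval lay above 1 for all 44 (17.3%). Rrm2 stood at 222 CPM in cluster 8 and 13.3 CPM in cluster 7 (ratio 16.7, 12.2 to 23.5), Cdc6 at 34.2 and 2.27 CPM (15.1, 7.10 to 38.3) and Clspn at 118 and 11.98 CPM (9.85). The genes nearest to each other in the pair were Gins1 (2.04), Rfc5 (2.16), Rfc2 (2.23) and Nasp (2.31). The repair and checkpoint genes had a ratio of 6.80, the nucleotide supply genes one of 6.23 and the clamp and loader group one of 3.09. The replication-coupled histones, whose mRNAs accumulate in S phase, stood at 287 CPM in cluster 7 and 2258 CPM in cluster 8 (7.88), with Hist1h1b at 80.9 and 905 CPM. Among mitosis genes, Top2a stood at 404 and 989 CPM and Ube2c, a gene of mitotic exit, at 911 and 539 CPM. Cluster 7 held 50 cells labelled G1, 54 labelled S and 266 labelled G2M. Its G2M cells stood at 1072 CPM of the replication genes, against 3529 CPM in the G2M cells of cluster 8. Depth was lower in cluster 7 (medians of 7902 and 10,545 UMIs in these G2M cells). At 1000 UMIs per cell, 32 of 370 cells of cluster 7 (8.65%) and 254 of 352 of cluster 8 (72.2%) held 3 or more UMIs of the set. The share of called doublets was 3.78% in cluster 7 and 7.10% in cluster 8.

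**Figure D4:**
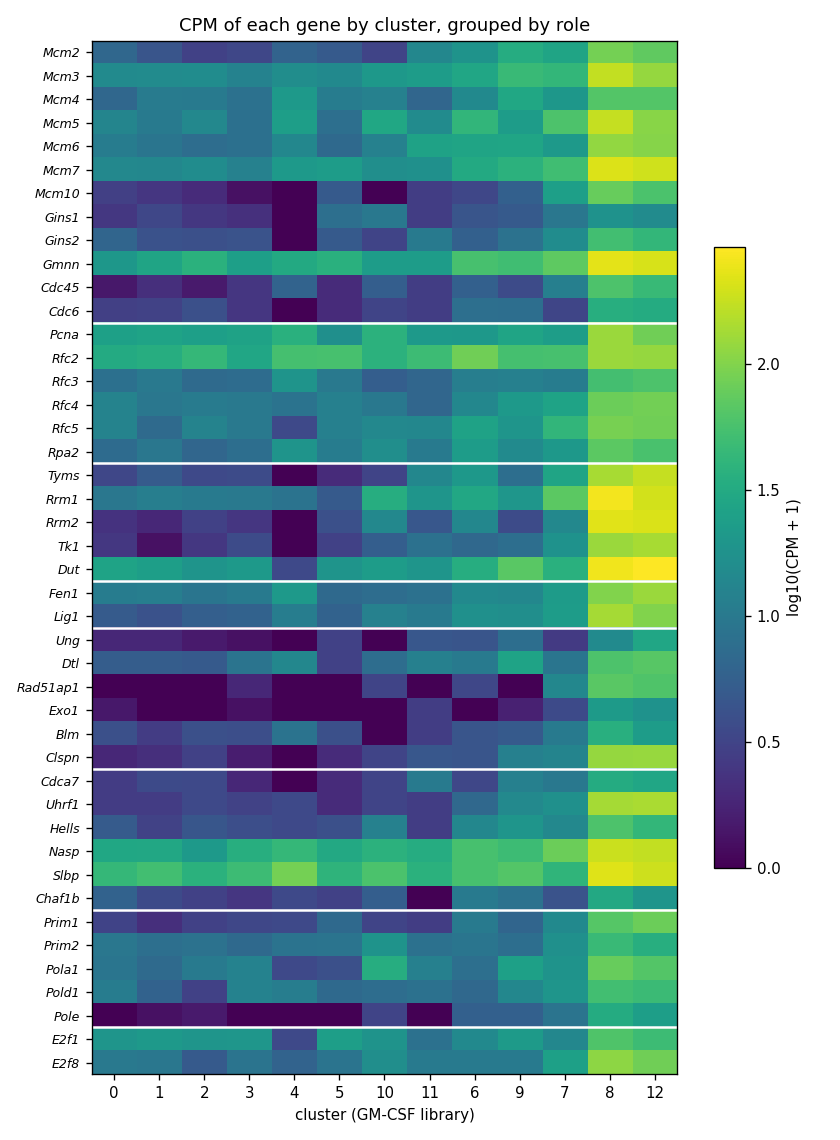
Log10(CPM + 1) of each replication gene (rows, grouped by role) in 13 clusters of the GM-CSF library (columns), from dark (low) to yellow (high). The columns of clusters 8 and 12 are bright in every role, and cluster 7 is only partly brighter than the clusters to its left.

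The phases split the set. Across the GM-CSF bundle the 44 genes summed to 341 CPM in cells labelled G1, 2941 in S and 2332 in G2M, and in steady state to 338, 1439 and 1855 CPM. Of the steady-state cells labelled S and G2M, 8 of 378 and 19 of 135 carried NK markers, and these markers stood at 4023 CPM in the G2M cells, against 12.8 CPM in the G2M cells after GM-CSF. Without the marked cells the steady-state levels were 1226 CPM in S and 1046 CPM in G2M. All 44 were at least 2-fold higher in S than in G1 after GM-CSF (4.15% of all genes), and 0 were lower (0.988%). Since 30 of them are in the list behind the phase labels, the other 14 were also taken alone: with both libraries pooled, S over G1 was 6.60 (6.29 to 6.92) for these 14, with 7.38 within the GM-CSF and 4.14 within the steady-state library (3.32 without the NK-marker cells). Their S over G2M ratio was 0.948 (0.912 to 0.986) pooled, 1.17 (1.12 to 1.22) within the GM-CSF library and 0.654 (0.587 to 0.730) within the steady-state one. Without the NK-marker cells the steady-state ratio was 0.916 and its interval included 1 (0.791 to 1.06), so that without them the difference was not beyond counting error.

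Between S and G2M the genes ran from far higher in S to higher in G2M. In the GM-CSF bundle 10 of the 44 were at least 2-fold higher in S (2.08% of all genes) and 0 at least 2-fold lower (3.36%), and the interval lay above 1 for 21 (21.5%) and below 1 for 8 (14.6%). Ung stood at 23.99 CPM in S and 0.886 CPM in G2M (27.1, 12.04 to 75.4), Cdca7 at 39.2 and 5.32 CPM and Cdc6 at 33.7 and 7.83 CPM (4.31). Mcm6 (108 and 40.9 CPM) and Mcm2 (84.2 and 32.2 CPM) of the helicase ring followed, with Chaf1b, E2f1, Pcna, Dtl and Mcm4. E2f1, with 57.9 and 23.04 CPM (2.52), was the 1 gene of these 10 outside the Seurat list. Higher in G2M were Rad51ap1 (22.4 and 42.2 CPM, 0.531), Tk1 (48.7 and 75.02 CPM, 0.649), Blm (0.649), Rfc5 (0.694), Rrm1 (114 and 158 CPM, 0.721), Mcm10 (0.787), Pold1 (0.790) and E2f8 (0.842). Of these 8, Tk1, Rfc5, Mcm10 and Pold1 are outside the Seurat list. Within the helicase ring, Mcm7 stood at 126 and 115 CPM (1.10, 0.987 to 1.23), while Mcm2, Mcm4 and Mcm6 were over 2-fold higher in S. Mcm2, Mcm4 and Mcm6 are in the Seurat list behind the phase labels and Mcm7 is not. Mcm3, also outside the list, had a ratio of 1.69, and Mcm5, which is in it, one of 1.31. The part of the labels in these differences within the ring was not tested.

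**Figure D5:**
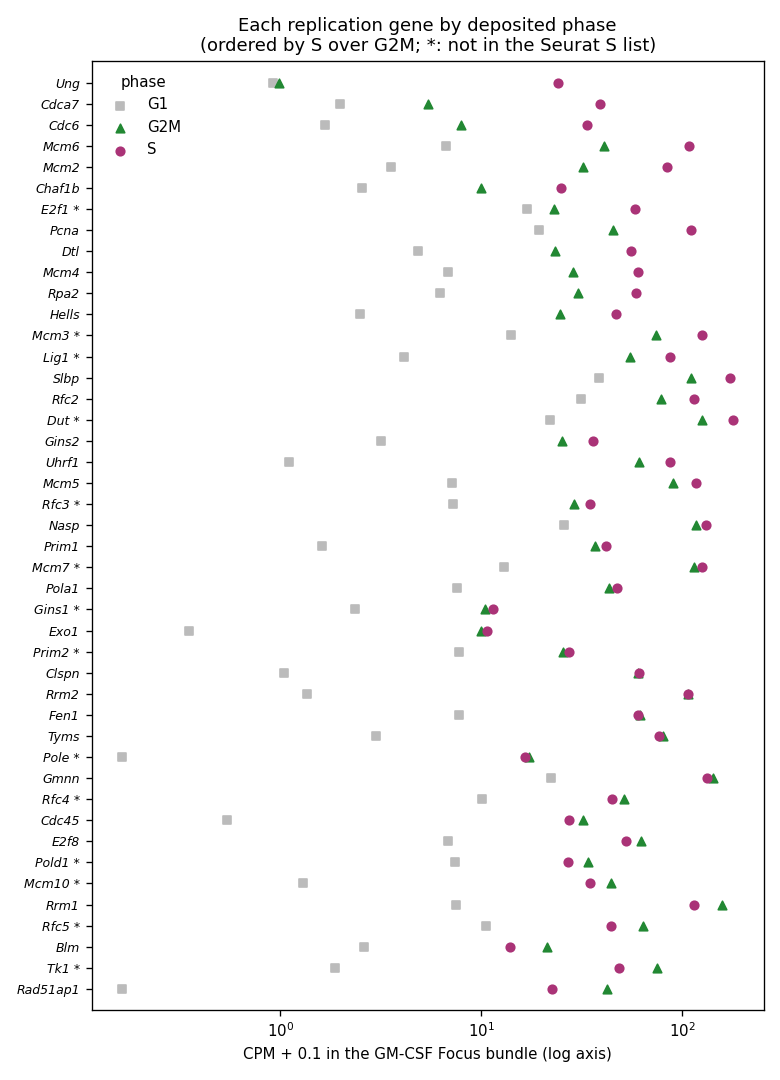
CPM + 0.1 of each replication gene (log axis) in the GM-CSF Focus bundle cells labelled G1 (grey squares), S (purple circles) and G2M (green triangles), ordered by S over G2M, with asterisks on the 14 genes outside the Seurat S list. G1 lies lowest in nearly every row, and S and G2M separate most for Ung (23.99 and 0.886 CPM) at the top and Rad51ap1 (22.4 and 42.2 CPM) at the bottom.

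A label of S did not mean a like level in every cluster. In clusters 0 to 5 of the GM-CSF library the cells labelled S stood at 734 CPM and those labelled G1 at 329 CPM (2.23, 2.10 to 2.37), while cells labelled S in cluster 8 stood at 7013 CPM. In these clusters 17 of 26 genes with 50 or more UMIs were at least 2-fold higher in S than in G1 (0.571% of all genes). Of these 17, only Lig1 (2.15, 1.14 to 3.86) is outside the Seurat list behind the S label. The count is thus largely part of the label, and its excess over the share of all genes shows nothing further. For the 14 genes outside the Seurat list the ratio in these clusters was 1.31 (1.15 to 1.48), and for the mitosis genes 0.961 (0.822 to 1.12). In steady-state cluster 6, 98 of 297 cells were labelled S. They stood at 443 CPM of the whole set against 266 CPM in the G1 cells, and at 60.9 against 66.0 CPM for the 14 genes. In the GM-CSF library cluster 6 differed from this, with 1182 against 427 CPM for the whole set and 319.5 against 129 CPM for the 14 genes, in 33 cells labelled S and 55 labelled G1. The median S score of the 98 steady-state cells was 0.0200, against 0.578 in the 25 S cells of clusters 7, 8 and 12 of that library. Scores and labels are per-cell calls that also read free RNA, and no cycling was read from them alone.

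The CD115hi subsets of the study, gated on antibody tags, are P-I (Ly6C+ classical monocytes), the small P-II, P-III (named pre-GMiDCs by the authors) and P-IV (GMiDCs, GM-CSF-induced DCs). After GM-CSF the set stood at 1174 CPM in P-I (187 cells), 886 in P-III (126 cells) and 1394 in P-IV (313 cells), and at 468 CPM in the 8 cells of P-II. In steady state P-I stood at 456 CPM (139 cells), and P-III and P-IV held 12 and 7 cells (480 and 516 CPM). P-I was thus 2.58 times as high after GM-CSF (2.33 to 2.85). The subset was spread differently over the clusters: 2 of the 139 steady-state cells lay in cluster 7 and 1 in cluster 8, which alone held 158 of the 498 UMIs of the set, against 30 and 22 of the 187 GM-CSF cells. Outside clusters 7 and 8 the ratio was 1.31 (1.13 to 1.52), and 2.10 (1.55 to 2.88) for the 14 genes outside the Seurat list. In clusters 0, 1, 3, 5 and 10 P-I stood at 318 CPM in steady state (41 cells) and 445 CPM after GM-CSF (57 cells), a ratio of 1.401 (1.08 to 1.82). For the 14 genes the ratio in these clusters was 2.21 (1.28 to 3.95), from 20 and 45 UMIs. Over all of P-I, of 16 genes with 50 or more UMIs, 11 were at least 2-fold higher (4.99% of all genes) and 0 at least 2-fold lower (7.12%).

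Within the GM-CSF library P-III over P-I was 0.755 (0.688 to 0.827), with Rfc5 and Tyms at least 2-fold lower (2 of 16 genes, 2.71% of all genes) and 0 higher (1.11%). P-IV over P-I was 1.19 (1.12 to 1.26), with Dtl and Uhrf1 (41.4 and 12.2 CPM) at least 2-fold higher (2 of 35 genes, 3.63%) and Rad51ap1 lower (1 gene, 3.53%). P-IV over P-III was 1.57 (1.45 to 1.71), with 7 of 30 genes at least 2-fold higher (1.91% of all genes): Gins2, Mcm5, Mcm6, Rfc5, Tk1, Tyms and Uhrf1. Cluster 8 held 11.8% of P-I cells, 6.35% of P-III cells and 15.02% of P-IV cells, and 59.9, 59.2 and 73.3% of their UMIs of the set. In the cells of each subset that lay in clusters 0, 1, 3, 5 and 10, the levels were 445 CPM in P-I, 399 in P-III and 404 in P-IV, and the ratio of P-IV to P-I was 0.908 (0.758 to 1.09). In cluster 8 they were 4237, 4274 and 4881 CPM, with a P-IV over P-I ratio of 1.15 (1.07 to 1.24). P-IV cells in clusters 7 and 8 stood at 4063 CPM, 10.1 times those in clusters 0, 1, 3, 5 and 10 (9.21 to 10.99), and all 25 genes with 50 or more UMIs were at least 2-fold higher (5.85% of all genes), with 0 lower (3.27%).

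Genes of neighbouring functions were counted for comparison. The 41 other replication genes (origin recognition, further polymerase and checkpoint genes) stood at 812 CPM in the steady-state and 1186 CPM in the GM-CSF bundle (1.46, 1.43 to 1.49). Of 40 genes, 14 were at least 2-fold higher (8.66% of all genes) and 0 lower (9.46%). The most counted of them differed less than the set: Dna2, a nuclease and helicase, stood at 116 and 126 CPM, Mcmbp, an MCM binding partner, at 114 and 87.8 CPM, and Usp1 at 57.2 and 72.4 CPM. The 23 mitosis genes stood at 432 and 2140 CPM (4.95, 4.83 to 5.08) and all 23 were at least 2-fold higher (8.66% of all genes). The replication-coupled histones stood at 209 and 546 CPM (2.61). Without the NK-marker cells the 3 ratios were 1.56, 8.59 and 3.35. Over all cells of the bundle, with the NK-marker cells kept, the median ratio was 2.34 for the 44 replication genes, 1.70 for the other replication genes and 5.26 for the mitosis genes.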

How the data were processed

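CITE-seq libraries were made by the authors with 10x Genomics 3' v3 chemistry, which keeps the strand, from 1 steady-state and 1 GM-CSF sample. Per the labels and the study's methods, RNA counts came from Cell Ranger 3.0.2 on mm10 and tag counts from CITE-seq-Count, and Seurat 3.6.0 was used to keep cells in which 200 to 5000 genes were detected and mitochondrial UMIs did not exceed 15%. The deposited RNA and tag matrices hold raw counts. The deposited cell table gives the share of mitochondrial UMIs in percent, the S and G2M score of each cell made by the authors with Seurat, and the condition, cell type, cluster, subset and phase labels used for grouping. The methods state that part of the Seurat S list was used for phases without naming the genes.

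The 44 genes, the comparison lists and the alternatives were chosen with earlier results of these data known, and all 44 are reported. Counts were summed per library and group and divided by the group total. Poisson, Clopper-Pearson and ratio intervals (from the binomial share of both sums) are exact at 95%. Genes with at least 50 UMIs over both groups and a CPM ratio, with 0.5 counts added, of at least 2 or at most 0.5 were counted, in the set and in all genes. Cells were thinned to 1000 UMIs (seed 20), which left out shallower cells. Granulocytes were taken as the background. Scrublet in scanpy, with exact neighbours, called 152 (3.15%) and 186 (2.73%) doublets, which were kept in the values except in the alternative without them. NK-marker cells were defined after seeing the data. Both the intervals and the fold threshold were checked on simulated counts. Beyond the 44 genes, named are the most counted genes of each comparison list and marker genes. Marker lists covered classical and non-classical monocytes, DCs, neutrophil progenitors, neutrophils, B, T and NK cells, macrophages and erythroid cells. Promoter windows came from RefSeq (GRCm38.p6) and gene positions from GENCODE on GRCm38. The software was numpy 2.4.6, pandas 2.3.3 and scipy 1.17.1 under Python 3.11.15, with matplotlib 3.10.9 for figures and scanpy 1.11.5 (anndata 0.12.19) for Scrublet. The alternatives were doublets, mitochondrial share, depth, the mean of per-cell values, the gene with the most UMIs, the 14 genes outside the Seurat list, pooled libraries, the UMI minimum and the added count.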

Additional observations from a re-analysis of the deposited data

Results flagged for a closer look

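Clusters 6, 7 and 8 differed in direction between the libraries. The summed level of the 44 genes was 2.34 times as high after GM-CSF in cluster 6 (757.5 against 324 CPM, interval 2.10 to 2.60) and 1.57 times in cluster 7 (1043 against 664 CPM, 1.35 to 1.84). In cluster 8 it was 0.618 times as high (4478 against 7248 CPM, 0.592 to 0.645). The difference between the clusters was not tested. In cluster 6 the neutrophil markers stood at 348 CPM in steady state and 3422 CPM after GM-CSF, the neutrophil progenitor markers at 19.6 and 131 CPM and the classical monocyte markers at 8405 and 3484 CPM, and their part in its ratio was not tested. Without the NK-marker cells the ratio was 2.35 in cluster 7 and 0.682 in cluster 8, the latter resting on 6 steady-state cells, and without doublets it was 0.627 in cluster 8.

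A signal of another cell type stood in steady-state cluster 8, where the 5 NK markers summed to 11716 CPM against 24.05 CPM in GM-CSF cluster 8.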

How the results depend on the processing

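Of 114 values recomputed under an alternative for 17 results, 73 stayed within the counting interval, or within 1.5 times for a count, 40 moved and 1 reversed. The reversed value was clusters 6, 7 and 8 over cluster 12 after GM-CSF (0.659), which was 1.11 with cluster 8 alone, against 0.258 with cluster 7 and 0.187 with cluster 6 alone. The count of genes 2-fold lower there went from 7 to 0 with cluster 8 alone. Without doublets the ratio between libraries was 1.96 in all cells and 1.93 in the bundle, and for the 14 genes S over G1 was 6.25 and S over G2M 0.904. Thinned to 1000 UMIs, the values were 1.83 in all cells, 1.76 in the bundle, 1.68 in progenitor DCs, 0.588 and 0.146 for clusters 6, 7 and 8 over 12 after GM-CSF and in steady state, 0.659 for P-III over P-I, 4.50 for S over G1, 0.676 for S over G2M and 17 genes in place of 29. After thinning 32 of the 44 genes had 50 or more UMIs, and 6.8% of all such genes were 2-fold higher. As means of per-cell CPM they were 1.76 in all cells, 1.83 in the bundle, 2.01 in progenitor DCs, 0.6003 and 0.175 for the clusters, 0.671 for P-III and 1.10 for P-IV over P-I, 4.73 for S over G1 and 0.755 for S over G2M. Without Slbp they were 2.15 in all cells, 2.14 in the bundle and 2.62 in cluster 6. With only the 14 genes outside the Seurat list they were 2.53 in all cells, 2.56 in the bundle, 2.22 in progenitor DCs, 3.08 in cluster 6 and 3.45 in P-I. With both libraries pooled, the clusters over 12 came to 0.537, P-III over P-I to 0.985 and P-IV over P-I to 1.60. Without NK-marker cells, an alternative chosen after seeing the data like those with single clusters, all cells came to 2.37, the bundle to 2.40 and the steady-state clusters to 0.119. The cause of these shifts was not tested. The neutrophil ratio, the ratio within P-IV and the counts of genes higher than cluster 12 or lower in the bundle did not move, nor did any result under the mitochondrial limit of 10%, the UMI minimum of 20 or 100 or 0.1 added counts. No paired analysis was possible because each condition has 1 library. Small groups, such as steady-state clusters 8 and 12, limit what depth can show, and no interval covers variation between mice.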
